A study of Mus musculus with 6 samples.

Results

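PRDM16 is a zinc finger protein with a PR domain that binds DNA and recruits other proteins to turn genes on or off. It is best known for setting brown fat identity, where it works with the corepressors CTBP1 and CTBP2, the histone H3 lysine 9 (H3K9) methyltransferases EHMT1 and EHMT2, the Mediator subunit MED1 and the zinc finger protein ZFP516. Its closest relative is MECOM, and both proteins can bind the TGF-β pathway repressors SKI and SKIL. These 10 genes (Prdm16, Mecom, Ctbp1, Ctbp2, Ehmt1, Ehmt2, Ski, Skil, Med1 and Zfp516) were taken by symbol from the 55487 genes counted, and all 10 were among the 16565 genes with enough reads to be tested.

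The aortas came from male mice on a C57BL/6 background, 3 per group, each library from a separate mouse. The Prdm16 iSM KO (inducible, smooth muscle) mice carried Myh11-CreERT2 and 2 Prdm16 alleles with loxP sites around exon 9, and the controls carried Myh11-CreERT2 with wild-type Prdm16. Both groups received tamoxifen, which activates CreERT2, from 8 weeks of age at 1 mg per mouse per day for 10 days, then had 2 weeks without drug and a further 60 days. Myh11 drives the Cre in smooth muscle, so endothelial, adipocyte and other cells of the vessel were not its intended target. Deletion in each cell type was not measured by these counts. The adventitia was stripped under a stereoscope before RNA was extracted and depleted of ribosomal RNA. No group used here carried the floxed allele without Cre.

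The libraries held 24911584 to 40460411 rounded counts, of which 59.0% to 67.6% were on protein-coding genes, and control 3 had the lowest value of both. Summed markers of smooth muscle were high in every library, from 22392 to 27357 CPM (the normalized count used throughout, scaled to library size with TMM factors). Of the 7 smooth muscle markers 1, Myocd, was higher in iSM KO (log2 fold change 0.65, FDR = 0.0109 by edgeR), and 1 was called by DESeq2 and 1 by limma-voom. Of the 4 tested cardiomyocyte markers 1, Ryr2, was higher (log2 fold change 0.50, FDR = 0.0459 by edgeR), at 127 CPM in controls. Actc1, Myh6 and Tnni3, at 1.27, 0.98 and 0.60 CPM in controls, had log2 fold changes of -1.32, -0.88 and -0.24 without a call. The median of the 4 was -0.56. The 1 tested T cell marker, Trbc2, was higher at levels under 1 CPM (log2 fold change 1.79, FDR = 0.0425 by edgeR). Summed adipocyte markers were 27.5, 137 and 91.7 CPM in controls 1, 2 and 3 and 8.60 to 12.9 CPM in iSM KO, and 5 of the 7 tested were lower in iSM KO by edgeR (6 by DESeq2, 1 by limma-voom, and 7 at an unadjusted p under 0.05). Summed brown adipocyte markers were 3.46, 10.9 and 45.6 CPM in the controls and 2.61 to 5.03 CPM in iSM KO, and Ucp1 ranged from 0.27 CPM in control 1 to 33.0 CPM in control 3. Endothelial markers summed to 581 to 1137 CPM in the controls and 323 to 866 CPM in iSM KO, and 0 of 10 passed the test with edgeR, 1 at an unadjusted p under 0.05, and 0 with DESeq2 or limma-voom. Fibroblast markers summed to 167 to 355 CPM in the controls and 136 to 202 CPM in iSM KO, and macrophage markers to 27.9 to 32.8 and 12.5 to 35.8 CPM, also overlapping and with 0 calls by edgeR (6 and 1 at an unadjusted p under 0.05, 2 and 1 by DESeq2, 0 and 0 by limma-voom). No listed marker of any cell type was at 0 in all 6 libraries. In these bulk samples, fewer cells of a type and less RNA per cell cannot be told apart.

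Prdm16 (ENSMUSG00000039410; chromosome 4, 154316125 to 154636873, minus strand) is placed here on GRCm38, the mm10 build of the files. In the GENCODE transcript Prdm16-201, exon 9 codes for residues 397 to 869 of 1275. Both short motifs through which PRDM proteins bind CTBP1 and CTBP2, PFDLT at residues 773 to 777 and PLDLS at residues 803 to 807, fell inside exon 9. The bases that code for these motifs are printed because exon 9 is the part removed from Prdm16, while MECOM keeps its own copy of each. MECOM, in transcript Mecom-212 of 1051 residues, holds PFDLT at residues 553 to 557 and PLDLS at residues 584 to 588, both in exon 7. Capitals mark the 15 bases of the motif, and 15 bases of coding sequence stand on each side, read 5′ to 3′ on the minus strand.
Prdm16 PFDLT, chr4:154340981-154341025: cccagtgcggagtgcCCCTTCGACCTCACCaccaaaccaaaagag
Mecom PFDLT, chr3:29979840-29979884: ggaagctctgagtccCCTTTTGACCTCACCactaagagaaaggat
Prdm16 PLDLS, chr4:154340891-154340935: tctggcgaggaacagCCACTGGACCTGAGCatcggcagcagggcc
Mecom PLDLS, chr3:29979747-29979791: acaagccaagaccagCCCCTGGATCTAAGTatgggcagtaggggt

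Joining exon 8 to exon 10 in this annotation gave a reading frame of 397 residues, of which the first 396 were those of the full frame. The joined sequence is shown with 30 bases of each exon because it holds the new stop codon, in capitals, which ends at base 5 of exon 10.
Prdm16 exon 8 joined to exon 10: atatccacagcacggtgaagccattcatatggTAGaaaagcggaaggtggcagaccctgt
The 30 bases of exon 8 lie at chr4:154345322-154345351 and those of exon 10 at chr4:154337698-154337727, minus strand. The translated frames of Prdm16-201 and Mecom-212 aligned over 1022 positions and were identical at 55.8% of them. The identity was 50.9% over the 446 aligned positions coded by exon 9, 65.6% over the 186 before it and 56.7% over the 390 after it. PRDM16 has 396 residues before exon 9, so the 65.6% covers only the 186 that aligned. The rest of the 396 had no aligned position in Mecom-212, and other coding transcripts of Mecom were not aligned. Among the other members, the exact letters PLDLS or PFDLT were found in the main GENCODE frame of Zfp516 (PLDLS) and in none of the other 7. The joined transcript is a construction from the annotation, and splicing was not measured by counts per gene.

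Prdm16 normalized counts were 183, 223 and 179 CPM in controls 1, 2 and 3 and 93.8, 113 and 79.8 CPM in iSM KO 1, 2 and 3. The groups did not overlap, with control 2 the highest and iSM KO 3 the lowest. The iSM KO mean was 49.0% of the control mean, and the log2 fold change was -1.03 (SE 0.14, 95% interval -1.34 to -0.72, FDR = 0.00265 by the edgeR quasi-likelihood fit, adjusted by Benjamini-Hochberg over all tested genes). The count covers all 17 exons, so the exons that remain after deletion still contribute. Adipocyte markers were also higher in the controls. Endothelial and fibroblast markers had median log2 fold changes of -0.66 and -0.68, with 0 calls by edgeR and sums that overlapped between the groups. The paper reports PRDM16 in endothelial cells too, at a lower level than in smooth muscle cells. What part any of these cells had in the Prdm16 difference was not tested. The adipocyte sums of controls 1, 2 and 3 were 27.5, 137 and 91.7 CPM, beside 183, 223 and 179 CPM of Prdm16. In iSM KO the adipocyte sums were 8.60 to 12.9 CPM. Without control 2, the log2 fold change of Prdm16 was -0.92 and stayed past the FDR, but the fold change no longer exceeded 2. The same happened without iSM KO 3, where it was also -0.92.

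Mecom (ENSMUSG00000027684; chromosome 3, 29951296 to 30548008, minus strand), also called Evi1, codes for a transcription factor studied mostly in blood stem cells and endothelium. Its counts were 52.0, 48.4 and 42.3 CPM in the controls and 68.5, 67.5 and 69.9 CPM in iSM KO. All iSM KO libraries lay above all controls, and they lay closer together, with a coefficient of variation of 1.79% against 10.3%. This coefficient was also lower in iSM KO than in controls for 65.0% of all tested genes, and for 8 of the 10 members. Mecom rose by a log2 fold change of 0.53 (SE 0.09, 95% interval 0.33 to 0.72, FDR = 0.00743 by edgeR), to 144% of the control mean. Leaving out each library in turn gave log2 values from 0.44 to 0.60 and kept the FDR under 0.05, the weakest being 0.0460 without iSM KO 2. Endothelial cells are known to express Mecom. The 10 endothelial markers had a median log2 fold change of -0.66 with 0 calls by edgeR and sums that overlapped between the groups, and their part in the Mecom level was not tested.

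**Figure D1:**
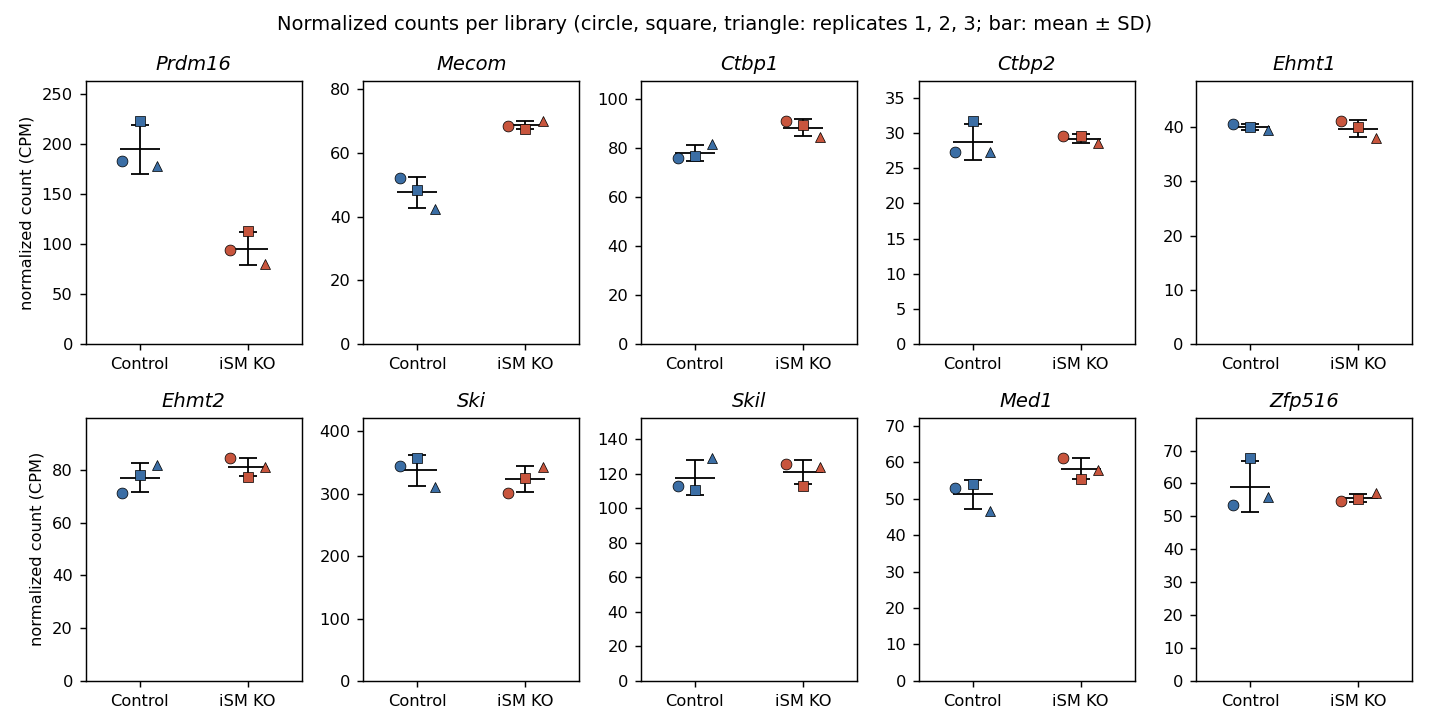
Normalized counts (CPM, vertical axes from 0) of the 10 genes in each library, with circles, squares and triangles for replicates 1, 2 and 3 and bars for the mean ± SD. Control and iSM KO do not overlap for Prdm16, Mecom, Ctbp1 and Med1, and Prdm16 falls to 49.0% of its control mean while Mecom reaches 144%.

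In all, 2 of the 10 genes had an FDR under 0.05, 1 lower and 1 higher, and only Prdm16 was also past a fold change of 2. Over all tested genes, 7.56% had an FDR under 0.05, 4.26% higher and 3.3% lower, and 2.78% were also past a fold change of 2. In 4 of the 10 genes (Prdm16, Mecom, Ctbp1 and Med1) the CPM of the groups did not overlap, which held for 27.9% of all tested genes. The median log2 fold change of the 10 genes was 0.03, and that of all tested genes was -0.01.

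The fall of Prdm16 and the rise of Mecom differed in size when set per kilobase of exon. Prdm16 went from 20.9 ± 2.63 to 10.2 ± 1.77 CPM per kb (SD, n = 3), and Mecom from 3.83 ± 0.39 to 5.52 ± 0.10 CPM per kb (SD, n = 3). The gain of Mecom was 15.9% of the loss of Prdm16 on this scale. The sum of both genes was 24.7 ± 2.75 CPM per kb in controls and 15.8 ± 1.67 CPM per kb in iSM KO (SD, n = 3). In iSM KO the Prdm16 part includes reads of exons left after deletion, from alleles that the paper describes as null. The length used for Prdm16 includes the 1417 bp of exon 9 in both groups. The ratio of Prdm16 to Mecom within a library, on the log2 scale per kb, was 2.23, 2.62 and 2.49 in the controls and 0.87, 1.15 and 0.61 in iSM KO. In linear terms Prdm16 exceeded Mecom 5.45-fold in controls and 1.84-fold in iSM KO, per kb of joined exons. These levels and the 15.9% depend on the length used, though the change of the ratio does not. Joined exons span 9321 bp for Prdm16 and 12427 bp for Mecom, against 8598 and 5066 bp in Prdm16-201 and Mecom-212. On these transcript lengths Mecom stands above Prdm16 in each iSM KO library, and Prdm16 stays above Mecom in each control. The excess of Prdm16 in controls is then smaller, and the gain of Mecom is a larger part of the loss of Prdm16. The ratio moved by -1.57 with an exact permutation p = 0.1 (two-sided), the smallest that 3 against 3 libraries can give, and 0.4 after adjustment over 4 pairs. Prdm16, the targeted gene, is the numerator of this ratio, so the ratio is no measure independent of the Prdm16 count.

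Ctbp1 and Ctbp2 code for the CtBP corepressors, which bind PLDLS-type motifs and bring in histone-modifying enzymes. Ctbp1 (chromosome 5, 33247723 to 33274994, minus strand) had 75.8, 76.8 and 81.8 CPM in controls against 91.1, 89.5 and 84.5 CPM in iSM KO. The groups did not overlap, but the gap between control 3 and iSM KO 3 was small, and the log2 fold change of 0.18 (95% interval 0.01 to 0.34) had an unadjusted p of 0.0364 and an FDR of 0.192 by edgeR. Ctbp2 (chromosome 7, 132987563 to 133124354, minus strand) had 27.2, 31.7 and 27.3 CPM in controls against 29.5, 29.5 and 28.5 CPM in iSM KO, and its log2 fold change was 0.02 (95% interval -0.18 to 0.22, FDR = 0.912 by edgeR). Ctbp2 shares 314 identical bases of transcript with the overlapping gene Fgfr2, so the reads of that stretch could have been counted for either gene. The log2 ratio of Ctbp1 to Ctbp2 per kb was 1.92 ± 0.16 in controls and 2.07 ± 0.03 in iSM KO (SD, n = 3), a difference of 0.15 (exact permutation p = 0.2, 0.4 after adjustment over the 4 pairs).

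EHMT1 and EHMT2, also named GLP and G9a, form a complex that adds methyl groups to H3K9. Ehmt1 (chromosome 2, 24789928 to 24919614, minus strand) had 40.5, 40.0 and 39.4 CPM in controls against 41.0, 40.0 and 38.0 CPM in iSM KO. These were nearly level in every library, with a coefficient of variation of 1.40% in controls, the lowest of the 10 genes, and a log2 fold change of -0.01 (95% interval -0.17 to 0.15, FDR = 0.947 by edgeR). Ehmt2 (chromosome 17, 34898469 to 34914052, plus strand) had 71.0, 78.0 and 81.9 CPM in controls against 84.5, 77.3 and 81.2 CPM in iSM KO. The groups overlapped, and the log2 fold change was 0.07 (95% interval -0.11 to 0.26, FDR = 0.631 by edgeR). The transcripts of Ehmt2 share a stretch of 125 bp, 95.2% identical, with Wdr33. The log2 ratio of Ehmt1 to Ehmt2 per kb was -1.51 ± 0.12 in controls and -1.59 ± 0.07 in iSM KO (SD, n = 3), a difference of -0.09 (exact permutation p = 0.5, also 0.5 after adjustment).

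SKI and SKIL (SnoN) bind SMAD proteins and hold TGF-β target genes down. Ski (chromosome 4, 155154075 to 155222592, minus strand) had 344, 357 and 310 CPM in controls against 301, 326 and 343 CPM in iSM KO, the highest counts of the 10 genes. The groups overlapped, with a log2 fold change of -0.06 (95% interval -0.26 to 0.14, FDR = 0.736 by edgeR). Skil (chromosome 3, 31095058 to 31122577, plus strand) had 113, 111 and 129 CPM in controls against 126, 113 and 124 CPM in iSM KO, also overlapping, with a log2 fold change of 0.04 (95% interval -0.16 to 0.24, FDR = 0.826 by edgeR). The log2 ratio of Ski to Skil per kb was 2.32 ± 0.23 in controls and 2.22 ± 0.14 in iSM KO (SD, n = 3), a difference of -0.10 (exact permutation p = 0.5, also 0.5 after adjustment).

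**Figure D2:**
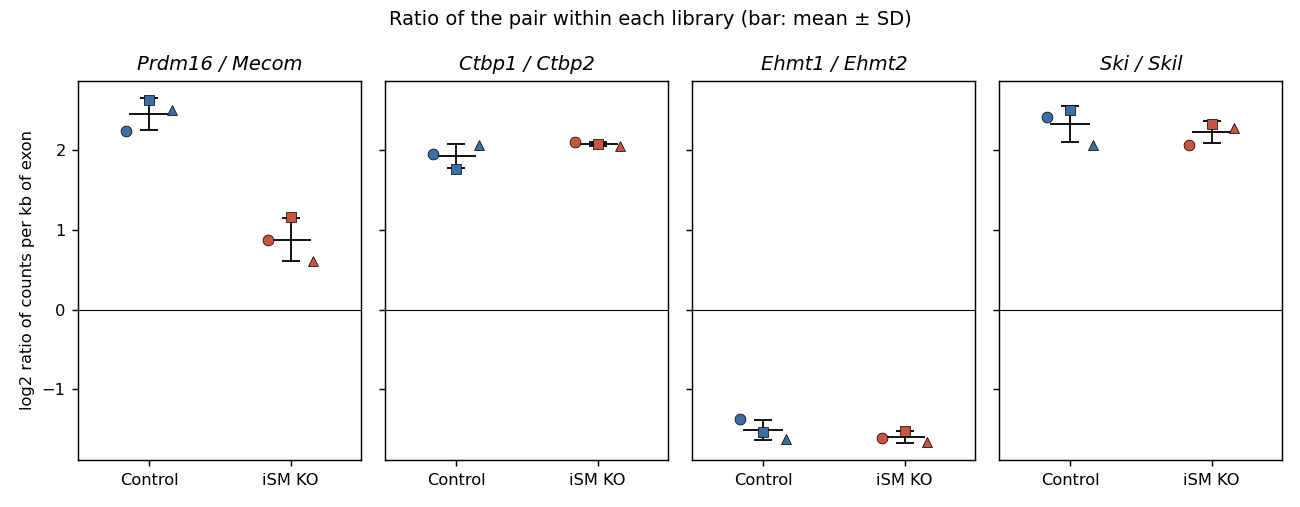
The log2 ratio of counts per kilobase of exon of 2 related genes within each library (vertical axis, shared), with points for libraries and bars for the mean ± SD. The ratio of Prdm16 to Mecom falls from 2.45 to 0.88 without overlap, while the other 3 ratios overlap between the groups.

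MED1 is the Mediator subunit through which nuclear receptors contact RNA polymerase II. Med1 (chromosome 11, 98152154 to 98193293, minus strand) had 52.9, 54.1 and 46.6 CPM in controls against 61.2, 55.5 and 57.9 CPM in iSM KO. The groups did not overlap, by a narrow margin between control 2 and iSM KO 2, and the log2 fold change was 0.18 (95% interval -0.0032 to 0.37, FDR = 0.233 by edgeR). ZFP516 binds PRDM16 and activates brown fat genes. Zfp516 (chromosome 18, plus strand) had 53.4, 67.8 and 55.9 CPM in controls against 54.7, 55.3 and 57.1 CPM in iSM KO. Control 2 stood above the other 5 libraries, which lay within 53.4 to 57.1 CPM, and the log2 fold change was -0.08 (95% interval -0.30 to 0.13, FDR = 0.653 by edgeR). Control 2 also had the highest adipocyte marker sum (137 CPM), and the part of these cells in the Zfp516 level was not tested.

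The 8 partners had log2 fold changes from -0.08 to 0.18 and FDRs from 0.192 to 0.947, with 0 calls by edgeR, 1 at an unadjusted p under 0.05 (Ctbp1), and 0 calls by DESeq2 or limma-voom. Their 95% intervals, taken for each gene alone, ran from -0.30 to 0.37, so that a change of more than 1.29-fold lay outside the interval of every partner.

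**Figure D3:**
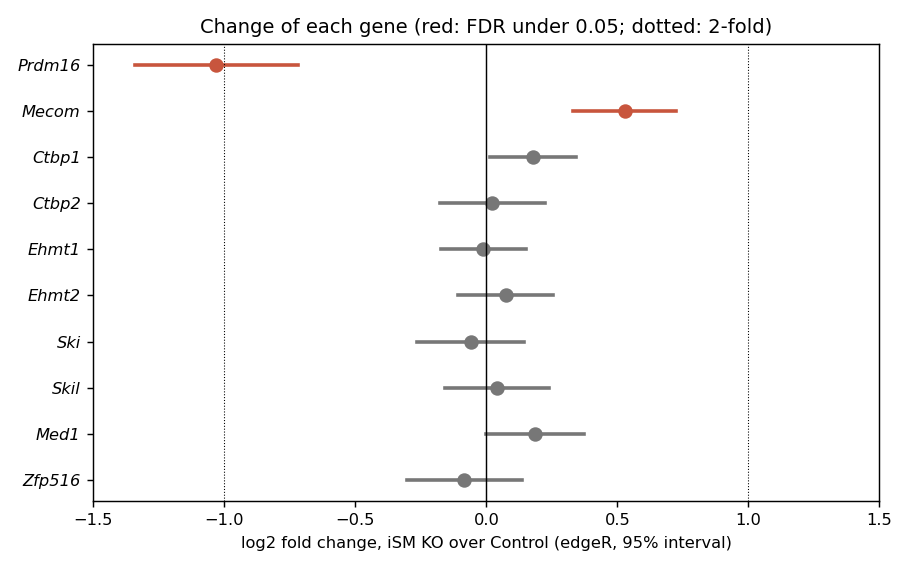
Log2 fold change of iSM KO over Control (horizontal axis) for the 10 genes, with 95% intervals from edgeR, red where the FDR is under 0.05 and dotted lines at a 2-fold change. Prdm16 at -1.03 and Mecom at 0.53 stand clear of 0, and the intervals of the other 8 genes reach no further than -0.30 and 0.37.

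Levels between genes were compared per kilobase of exon (CPM per kb), using the joined exons of each gene in GENCODE. The order depends on this length, and which transcripts were present was not measured. For Mecom the joined exons span 12427 bp and Mecom-212 5066 bp. For Ctbp1 they span 4476 bp and the transcript used for its frame 2279 bp. The order could therefore differ on transcript lengths, and for Prdm16 and Mecom in iSM KO it does. In controls the order was Ski (60.6), Prdm16 (20.9), Ctbp1 (17.5), Ehmt2 (14.0), Skil (12.1), Zfp516 (7.13), Med1 (5.85), Ehmt1 (4.93), Ctbp2 (4.62) and Mecom (3.83). The libraries of neighbours in this order overlapped for Ehmt2 and Skil and for Ehmt1 and Ctbp2, and stood apart for the other neighbours. In iSM KO aortas Prdm16 (10.2) dropped from rank 2 to rank 5, its libraries overlapping those of Skil (12.5), which was just above it. Mecom (5.52) moved from rank 10 to rank 8, above Ehmt1 (4.89) and Ctbp2 (4.69). The coefficient of variation of the CPM was between 1.40% and 13.0% in controls, where the median of all tested genes was 13.0%. It was between 1.79% and 17.3% in iSM KO, where the median of all tested genes was 9.23%, and Prdm16 was the most variable.

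Several genes are annotated within the span of Prdm16 or Mecom, and since the strand setting of the counting is not stated in the sources used here, reads of opposite strands cannot be told apart. The 3 genes annotated there lie on the opposite strand within Prdm16. Gm13134, an antisense RNA, rose from 2.02 to 5.16 CPM (log2 fold change 1.36, SE 0.25, FDR = 0.0118 by edgeR), while Prdm16 itself fell. B230104I21Rik, whose span covers exon 9, had 0.48 CPM in controls against 1.03 in iSM KO (FDR = 0.236 by edgeR), and Gm13133 had 0.45 and 0.73 CPM (FDR = 0.317 by edgeR). The 7 genes within the span of Mecom, the antisense gene Mecomos and 6 unclassified transcripts, had log2 fold changes from 0.28 (Mecomos) to 1.16 (Gm37024). Of these, Gm37024 passed, at 1.14 CPM in controls against 2.56 in iSM KO (FDR = 0.0123 by edgeR), and Gm38066, Gm38197, Gm10258, Gm38362 and Gm37652 did not. The unclassified transcripts that did not pass lie on the same strand as Mecom. Under any strand setting, their reads cannot be told from those of Mecom by strand. Within the spans of the other genes, 5 overlapping genes were tested (Fgfr2, B930086L07Rik, Gm38147, Gm37139 and AC142100.4), with 0 calls.

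Prdm16os, a long non-coding RNA, starts 702 bp beyond the start of Prdm16 and runs away from it on the plus strand, from 154637576 to 154644724 on chromosome 4. It was chosen for description after its values were seen. It had 37.3, 36.6 and 37.0 CPM in controls against 38.4, 42.4 and 35.5 CPM in iSM KO. Prdm16os was nearly level in the controls and overlapped between the groups, with a log2 fold change of 0.07 (95% interval -0.12 to 0.26, FDR = 0.672 by edgeR), where Prdm16 had -1.03. Within 1 Mb of Prdm16, 31 other genes were tested and 3 had an FDR under 0.05, 2 higher (Wrap73 and Gm13134) and 1 lower (Rer1), with a median log2 fold change of 0.01, where 7.56% of all tested genes had such an FDR. Ski is one of these 31, with 517 kb between it and Prdm16. The count was 3 of 22 within 500 kb and 7 of 69 within 2 Mb, and no difference from the share over all genes was tested.

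**Figure D4:**
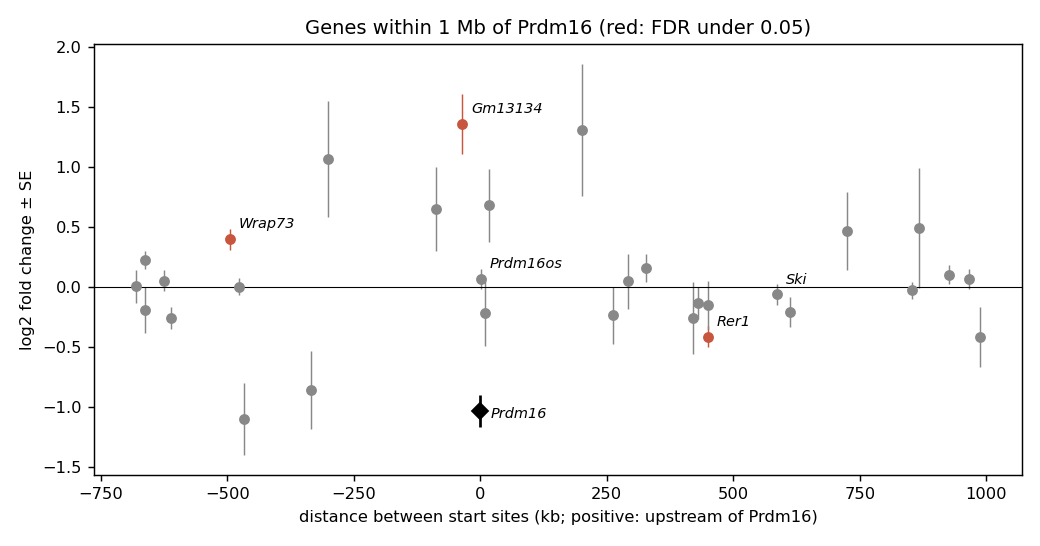
Log2 fold change ± SE of iSM KO over Control (vertical axis) against the distance in kb between the start of each of 31 genes and that of Prdm16 (horizontal axis, positive upstream), red where the FDR is under 0.05. Prdm16 (diamond) lies at -1.03 and Prdm16os, starting beside it, at 0.07.

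The other genes of these complexes were described by lists of known partners. Of all 16565 tested genes, 7.56% passed by edgeR. DESeq2 called 1711 of the 16565 and limma-voom 1244, and 3669 had an unadjusted p under 0.05. These shares apply to the marker lists above as well, and no difference of a list from them was tested. Of 8 tested further PRDM genes, which share the PR domain, 0 had an FDR under 0.05 and 0 an unadjusted p under 0.05, and DESeq2 and limma-voom also called 0. Their log2 fold changes ran from -0.24 (Prdm9) to 0.22 (Prdm15), and Prdm6, known in smooth muscle, had 70.1 ± 3.26 CPM in controls against 65.5 ± 3.98 CPM in iSM KO (SD, n = 3). Mecom was the only PRDM gene other than Prdm16 past the test among the 10 of this family that were tested with edgeR. Of 16 genes of the CtBP complex and its recruiters, 0 passed by edgeR or limma-voom, 2 by DESeq2 and 4 at an unadjusted p under 0.05. Their median log2 fold change was -0.05, with a range from -0.96 (Rcor2, FDR = 0.0586 by edgeR) to 0.19 (Wiz).

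Of 15 H3K9 methylation writers, erasers and readers, 0 passed by any of the 3 tools and 2 had an unadjusted p under 0.05. The median log2 fold change was 0.03, with a range from -0.68 to 0.26. Of 13 partners and degraders of SKI and SKIL, 0 passed by edgeR or limma-voom, 1 by DESeq2 and 2 at an unadjusted p under 0.05. For these the median was 0.03 and the range from -0.60 to 0.30. Of 32 further Mediator genes, 1 passed by edgeR, 1 by DESeq2 and 1 by limma-voom, and 6 had an unadjusted p under 0.05. Here the median was 0.05 and the range from -0.45 to 0.57. The gene called by edgeR was Cdk19, a kinase of the Mediator kinase module, with 23.9, 22.3 and 19.6 CPM in controls against 32.8, 31.2 and 34.1 CPM in iSM KO. The groups did not overlap, and Cdk19 rose by a log2 fold change of 0.57 (SE 0.10, FDR = 0.00790 by edgeR). Its paralog Cdk8 had 23.2 ± 1.17 CPM in controls against 24.5 ± 1.49 CPM in iSM KO (SD, n = 3, FDR = 0.631 by edgeR).

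Of 19 regulators that act with PRDM16 in brown fat, 2 rose and 1 fell by edgeR, where 7.56% of all tested genes passed, with a median of -0.12. DESeq2 called 5 of the 19, limma-voom 4, and 8 had an unadjusted p under 0.05. Over all 16565 tested genes these numbers were 1711, 1244 and 3669. Pparg, the nuclear receptor that drives fat cell formation, rose from 3.22, 4.58 and 3.77 CPM to 7.78, 9.71 and 8.95 CPM (log2 fold change 1.19, SE 0.17, FDR = 0.00354 by edgeR). Ppargc1a, a coactivator of mitochondrial genes, rose from 4.93, 3.59 and 5.03 CPM to 7.97, 7.68 and 7.53 CPM (log2 fold change 0.78, SE 0.16, FDR = 0.0192 by edgeR). Cebpd, a leucine zipper factor active early in fat cell formation, fell from 47.3, 34.4 and 42.7 CPM to 17.5, 24.8 and 27.0 CPM (log2 fold change -0.84, SE 0.17, FDR = 0.0183 by edgeR). In each of these the groups did not overlap, and Pparg and Ppargc1a were higher in iSM KO while the adipocyte markers were lower. The listed regulators not called by edgeR went both ways. Ebf2, Cebpa and Esrrg had log2 fold changes of -1.38, -1.37 and -1.31, and Ppargc1b and Esrra 0.63 and 0.25. All of these had an unadjusted p under 0.05 by edgeR.

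Of 5 tested brown fat target genes, Cidea, a lipid droplet protein, fell from 3.01, 5.98 and 8.51 CPM to 1.67, 1.46 and 1.62 CPM (log2 fold change -1.87, SE 0.34, FDR = 0.0118 by edgeR). Cidea is also one of the brown adipocyte markers, whose sum was highest in control 3 (45.6 CPM), and the part of such cells in its level was not tested. Ucp1, the uncoupling protein of brown fat, had 0.27, 4.22 and 33.0 CPM in controls against 2.85, 1.09 and 1.29 CPM in iSM KO, overlapping between the groups (FDR = 0.199 by edgeR).

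**Figure D5:**
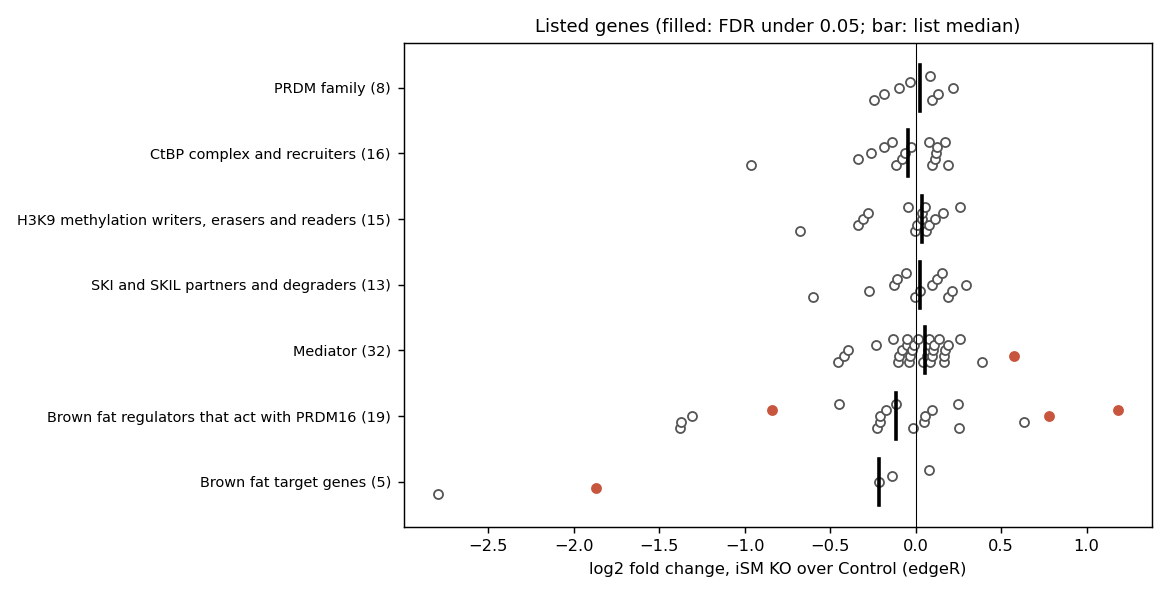
Log2 fold change of iSM KO over Control (horizontal axis) of the tested genes of 7 lists, the number tested in brackets, with filled points for an FDR under 0.05 and bars for list medians. The PRDM, CtBP, H3K9 and SKI lists hold no filled point, the Mediator list 1 (Cdk19), the brown fat regulators 3 and the brown fat targets 1 (Cidea).

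The 5 genes most like Prdm16, by Pearson's r of log2 CPM over the 6 libraries among genes with a mean of at least 1 CPM, were Chdh (r = 0.999), Adra1d (0.984), Suv39h2 (0.983), Tro (0.983) and Wdr11 (0.982). The 6 points share the group difference, so these values describe the likeness and carry no test. Chdh, a choline dehydrogenase, had 2.47 ± 0.50 CPM in controls against 0.73 ± 0.19 CPM in iSM KO (SD, n = 3). Adra1d, an α1-adrenergic receptor of arterial smooth muscle, had 65.3 ± 2.11 CPM in controls against 41.6 ± 3.12 CPM in iSM KO (SD, n = 3). Suv39h2, which methylates H3K9, had 1.34 ± 0.12 and 0.84 ± 0.04 CPM (SD, n = 3), with an FDR of 0.147 by edgeR.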

How the data were processed

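Per the labels and the study's methods, RNA of aortas was depleted of ribosomal RNA and sequenced paired-end, and the authors mapped and quantified the reads with DRAGEN (bcl2fastq is also named in the submitters' processing notes; no versions are given) against the Ensembl release 101 mouse reference (mm10). They deposited estimated counts for each gene, without normalization, and per library 10.9% to 12.2% of them had a fraction. Strand setting and the sharing of multi-mapped reads are not given in the sources used here.

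Counts were rounded, and genes were kept that exceeded a count of 10 in every library of either group. The main test was edgeR 4.0.16 in R 4.3.3 (TMM, glmQLFit and glmQLFTest, 6 libraries, no covariates), with Benjamini-Hochberg adjustment (FDR) over all genes tested. The study used DESeq2. It was run here as an alternative (DESeq2 1.42.0), as was limma-voom (limma 3.58.1). Other alternatives were other scalings and filters, the replicate block, each library left out, and a test against a fold change of 2. Pair ratios used exact permutation tests (SciPy 1.17.1). Positions and transcripts are from GENCODE M21, while the counts were made on Ensembl release 101. Of the 16565 tested genes, 16542 had a position in GENCODE M21. Lengths and overlaps may therefore differ from those used for counting. Copies were sought with blastn 2.17.0 (at least 95% identity over 100 bp), and frames were aligned with Biopython 1.88 (BLOSUM62). No pair of libraries within a group differed by as little as sampling noise.

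The members and lists were chosen with earlier results of these data known. The genes named are the members, genes overlapping them, listed genes with an FDR under 0.05, and the 5 genes most like Prdm16. Other genes named were chosen after their values were seen.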

Additional observations from a re-analysis of the deposited data

How the results depend on the processing

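Prdm16 stayed lower and Mecom higher, each with an FDR under 0.05, in all 13 alternatives, with log2 fold changes from -1.16 to -0.92 and from 0.44 to 0.60. The number of members with an FDR under 0.05 was 2 in each. The number also past a fold change of 2 was 1, but 0 with glmTreat, which sets the change against a 2-fold threshold, and 0 to 1 with single libraries left out. It was 0 without control 2 and without iSM KO 3. The number of called genes within 2 Mb of Prdm16 was 7, against 3 within 1 Mb. Without control 3, the shallowest library, 852 genes had an FDR under 0.05 in place of 1252, without iSM KO 1 or 2 only 627 and 513, and with no filter on low counts 1777.

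Of 130 member values, 8 changed sign, all in genes that passed no test. With protein-coding library totals, Ctbp2 had a log2 fold change of -0.0308 and Skil -0.0158. With single libraries left out, Ctbp2 ranged from -0.0221 to 0.10, Ehmt1 from -0.0363 to 0.0191, Skil from -0.0024 to 0.10 and Zfp516 from -0.15 to 0.0280. The cause was not tested. The lowest count of a member in any library was 650 (Ctbp2 in control 3) and the highest 13734 (Ski in control 2). Ratios of pairs kept their sign with lengths left out and with each library left out.

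Same-numbered control and iSM KO libraries deviated from their group means with correlations of -0.13, -0.05 and -0.11. The labels state no pairing, and deviations from means of 3 libraries cannot settle whether the mice were paired. With the replicate block, Prdm16 had a log2 fold change of -1.04 and Mecom 0.53 (FDR = 0.0274 by edgeR), 2 members had an FDR under 0.05, and 775 of all tested genes did.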
